A study of Homo sapiens with 6 samples.

Results

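Stretches of chromosome 1 in 1p36 and around the centromere carry many transfer RNA (tRNA) genes, and small RNA read from 60 windows over these genes was compared between cells given a control siRNA and cells given an siRNA against the RNA-binding protein La. The 60 windows were those labelled tRNA on chromosome 1 with a start from 16 to 17.5 Mb (12 windows in 1p36) or from 119 to 150.5 Mb (48 windows, called pericentromeric here) in GRCh38. They were 60 of 534 tRNA windows and of 53603 windows of all classes. Each window spanned 400 bp, with 150 bp before a start site and 250 bp after it, enough to hold a whole tRNA gene with its flanks. A RefSeq tRNA gene or pseudogene lay whole inside 43 windows, 36 of them annotated as tRNA genes and 7 as pseudogenes, and no such gene lay in the other 17. By symbol, the named genes and pseudogenes were of asparagine (13 windows), valine (9), glutamine (6), glycine (6), glutamate (4), histidine (3) and lysine (1) type, and 1 pseudogene had no anticodon in its symbol. The valine, glutamine and glutamate counts include pseudogenes.

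HEK293T cells, a line of human embryonic kidney origin, were transfected for 48 h with 150 nM of siRNA. The control arm received a control siRNA and the La knockdown arm an siRNA against La, the protein encoded by SSB, with 3 libraries per arm described as biological replicates. Small RNA was purified, treated with a phosphatase and then with a polynucleotide kinase, and sequenced. The question was how La affects small RNA made at start sites.

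A tRNA gene is transcribed by RNA polymerase III from promoter elements inside the gene, and transcription ends at a run of T in the DNA. The new transcript carries a 5′ leader and a 3′ trailer that ends in U residues. La binds this 3′ oligo(U) end, shields the precursor from exonucleases and guides its processing, after which the trailer is cut off and CCA is added. A window over a tRNA gene can collect reads from the precursor, from the mature tRNA and from its fragments, and these counts do not separate them. tRNA symbols name the amino acid and the anticodon, then a number for the mature sequence and a number for the copy, so TRG-CCC1-1 and TRG-CCC1-2 are copies with the same mature sequence. Reads from such copies cannot be placed with certainty, and how they were placed is not given in the sources used here, so values of single copies are uncertain.

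Total counts over all windows ran from 3066299 to 4105806 per library, and counts were scaled with TMM factors to counts per 1000000 (CPM). At 1 of 2 SSB start-site windows the controls had 4, 3 and 3 counts and the knockdowns 1, 0 and 0, and at the other they had 0, 0 and 1 against 0, 2 and 0. These are too few to test and do not measure the SSB mRNA. The start-site windows of 9 epithelial, kidney and other cell type marker genes had 0 reads in all libraries, so the cell line could not be checked by markers in these data. Of 19 genes for tRNA processing, export and RNA polymerase III, none had a window with enough reads to test. In bulk libraries less RNA per cell and fewer cells holding that RNA cannot be told apart.

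Windows of these 2 stretches had fewer reads in the knockdown libraries. Together they held 1.98%, 1.71% and 1.83% of all counts in the 3 control libraries, in the order of their numbers, against 1.07%, 0.840% and 1.33% after La siRNA. The 3 knockdown shares all lay below the 3 control shares. The mean share was 1.84% ± 0.134 for controls and 1.08% ± 0.246 for knockdowns (SD, n = 3 each). As a share of the reads of all tRNA windows they made up 11.8% ± 0.824 and 9.31% ± 0.949 (SD, n = 3 each). The 5 Gly-CCC windows alone gave 56.3% ± 3.74 of the reads of these windows in controls and 55.2% ± 4.57 in knockdowns (SD, n = 3 each). One window that overlaps its neighbour was left out of these sums.

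Of the 60 windows, 43 passed the filter on low counts and were tested, 8 in 1p36 and 35 in the pericentromeric stretch. The other 17 had at most 35 reads over the 6 libraries, 14 of them held no RefSeq gene, and 5 had no read at all. Among these 17, the pseudogene TRV-CAC13-1 had 9, 4 and 1 reads in the control and 1, 1 and 1 in the knockdown libraries. TRN-GTT4-1, an asparagine gene, had 6, 4 and 6 against 1, 3 and 3, and the pseudogene LOC100189498 had 0, 1 and 2 against 0, 1 and 0.

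Of the 43 tested windows 5 fell in the La knockdown arm and 0 rose (quasi-likelihood test of edgeR, p under 0.05 after Benjamini-Hochberg adjustment over all 1064 tested windows, n = 3 per arm). Over all tested windows 4.79% were called lower and 0.658% higher, and over the 403 tested tRNA windows elsewhere 6.45% were called lower. At an unadjusted p under 0.05, 20 of the 43 were lower and 0 higher, where 14.2% of all windows were lower and 9.68% higher. The 3 control CPM values all lay above the 3 knockdown values in 22 of the 43 windows and all below in 0, against 17.9% and 14.1% of all tested windows, and 32.8% and 3.23% of the tRNA windows elsewhere. The median log2 fold change was -0.61, beside -0.05 over all tested windows and -0.40 over the other tRNA windows. The fitted fold change was below 0 in 42 of the 43 windows, in 566 of all 1064 tested windows and in 327 of the 403 tRNA windows elsewhere. The called share was 11.6%, above the 4.79% of all tested windows, but 4 of the 5 calls came as 2 pairs of windows that overlap or had nearly the same counts. The other call, TRQ-CTG11-1, passed the low-count filter through its control libraries alone. A fit of windows with a mean of at least 20 counts left it out and called 4 of 39, where 5.11% of all windows were lower. The difference between these windows and tRNA windows elsewhere was not tested.

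**Figure D1:**
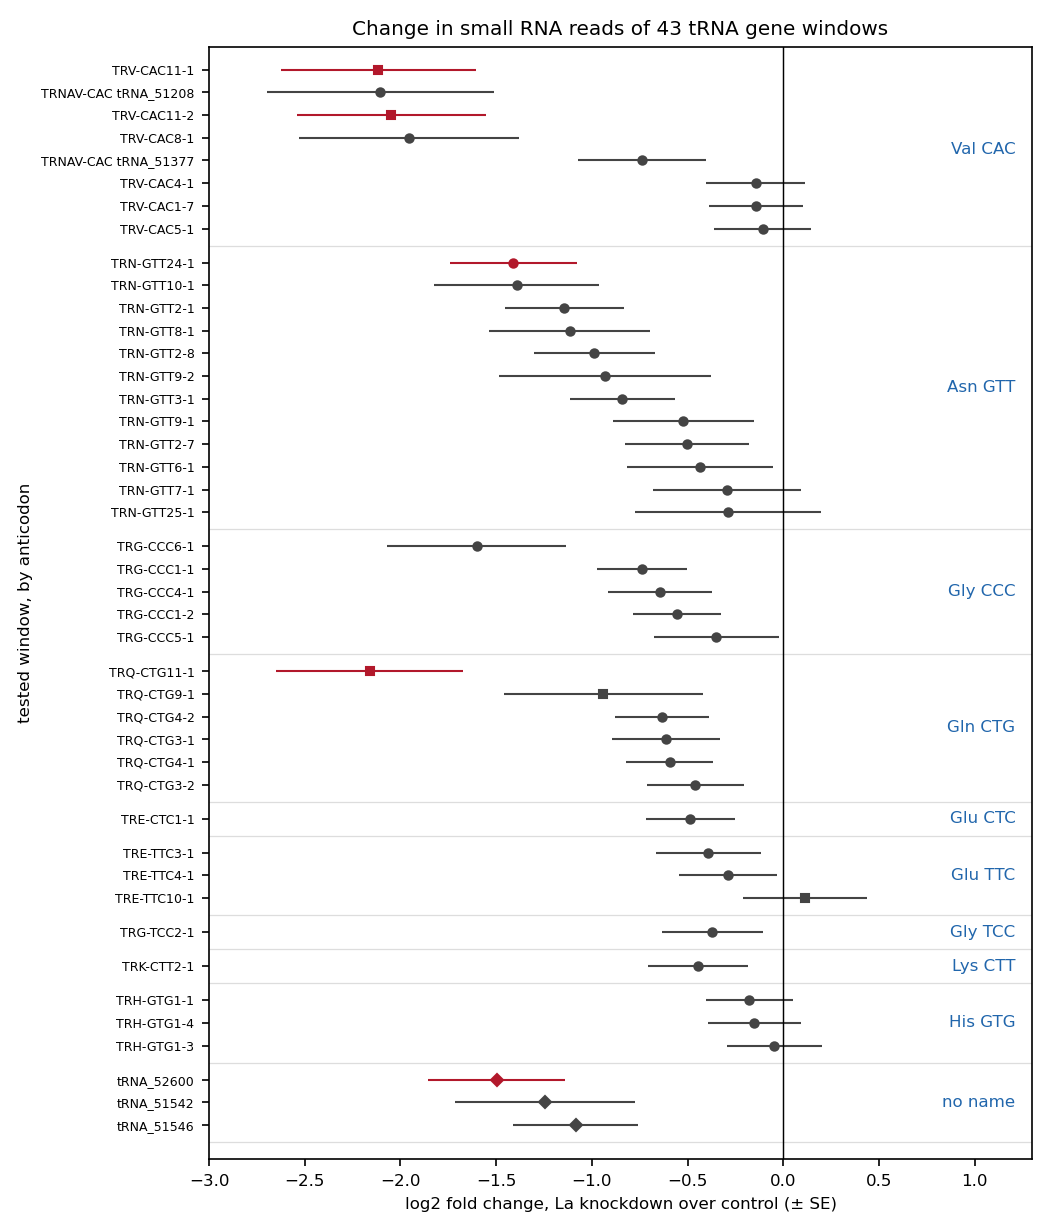
Log2 fold change of La knockdown over control (horizontal axis, ± SE) for the 43 tested windows, grouped by anticodon; red marks an adjusted p under 0.05, squares are RefSeq pseudogenes and diamonds are windows with no RefSeq tRNA gene. The valine CAC windows spread from -2.12 to -0.11, and the 3 histidine windows sit near 0.

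The calls comprised 3 pseudogene windows and 2 overlapping windows at 1 asparagine gene. The pseudogenes were TRV-CAC11-1, TRV-CAC11-2 and TRQ-CTG11-1, tRNA-like copies that the annotation does not count as tRNA genes. Of the 35 tested windows annotated as tRNA genes, only that of TRN-GTT24-1 was called. This share of 2.86% lay below the 4.79% of all tested windows and the 6.45% of tRNA windows elsewhere. Of the 5 tested pseudogene windows 3 were called, but these are not 3 independent results. TRV-CAC11-1 and TRV-CAC11-2 had nearly the same counts, and TRQ-CTG11-1 passed the low-count filter through its control libraries alone. Of the 3 tested windows with no RefSeq gene, tRNA_52600 was called.

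TRV-CAC11-1 and TRV-CAC11-2 are valine tRNA pseudogenes of 73 bases in 1p36. The TRV-CAC11-1 window (chromosome 1, positions 16547488 to 16547887, pseudogene at 16547665 to 16547737) had 858, 445 and 321 CPM in the control libraries, by number, and 101, 55.4 and 219 in the knockdown libraries. Every knockdown library lay below every control library, and control replicate 1 stood well above the other two control libraries. The log2 fold change was -2.12 (SE 0.51, adjusted p = 0.0390 by edgeR), from 542 ± 281 to 125 ± 84.2 CPM (SD, n = 3). The TRV-CAC11-2 window (positions 16860048 to 16860447, pseudogene at 16860198 to 16860270) had 856, 454 and 342 CPM in the control and 109, 59.5 and 231 in the knockdown libraries. It fell by 2.05 on the log2 scale (SE 0.49, adjusted p = 0.0390 by edgeR). The read counts of both windows differed by at most 7.84% in any library, so they are not independent evidence. Their calls were lost without control replicate 1 (edgeR adjusted p = 0.0744 and 0.0775), without La knockdown replicate 1 (0.265 for both) and without La knockdown replicate 2 (0.0786 for both).

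TRQ-CTG11-1, a glutamine tRNA pseudogene (window at positions 143584551 to 143584950, pseudogene at 143584701 to 143584772), had few reads. Its control counts were 19, 24 and 21 and its knockdown counts 1, 5 and 6, and the arms did not overlap. It passed the low-count filter through its control libraries alone, so a tested window of this kind had to differ between the arms. TRN-GTT7-1 and TRN-GTT25-1, with few reads as well, also had fewer than 3 knockdown libraries at the level of 3 CPM that the filter asked for. The log2 fold change was -2.16 (SE 0.49, adjusted p = 0.0325 by edgeR), and of 6 fits that each left out 1 library the call held only without La knockdown replicate 3 (adjusted p = 0.0341, and from 0.0559 to 0.164 without any one of the other 5).

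TRN-GTT24-1 is an asparagine tRNA gene (window at positions 146369951 to 146370350, gene at 146370101 to 146370174). It had 198, 174 and 158 CPM in the control and 82.8, 35.1 and 81.9 in the knockdown libraries. The control libraries lay close together, and La knockdown replicate 2 was the lowest. The log2 fold change was -1.41 (SE 0.33, adjusted p = 0.0375 by edgeR), from 177 ± 20.2 to 66.6 ± 27.3 CPM (SD, n = 3). The window tRNA_52600 (positions 146370155 to 146370554) overlaps it by 196 bp, holds only the 3′ end of that gene and had a log2 fold change of -1.50 (SE 0.36, adjusted p = 0.0390 by edgeR). Its 665, 516 and 515 control counts beside 759, 590 and 609 in the TRN-GTT24-1 window show counts of similar size, and how many reads both windows share was not tested. Both calls were lost without control replicate 1 (adjusted p = 0.0681), without control replicate 2 (0.0770) and without La knockdown replicate 1 (0.164). The fold changes of TRN-GTT24-1 in those fits were -1.33, -1.44 and -1.61. Upper quartile factors also ended both calls (adjusted p = 0.0535 for TRN-GTT24-1 and 0.0532 for tRNA_52600).

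**Figure D2:**
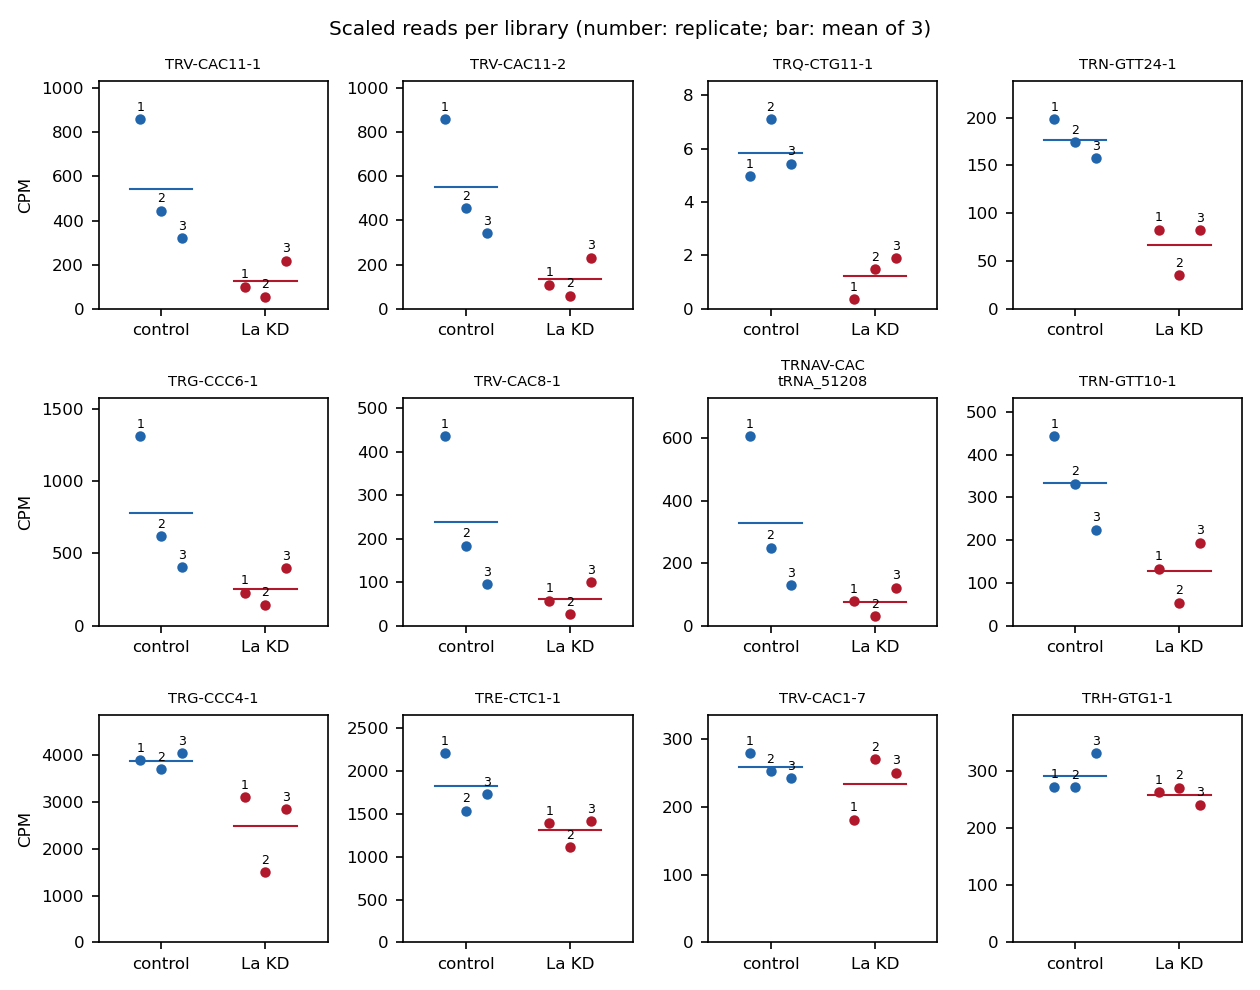
CPM in each library (vertical axes, one scale per panel, starting at 0) for 12 windows, control in blue and La knockdown (La KD) in red, with the replicate number beside each point and the mean of 3 as a bar. Control replicate 1 reaches 858 CPM in TRV-CAC11-1 and 1313 CPM in TRG-CCC6-1, above the other control libraries, and the arms of TRV-CAC1-7 overlap.

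Asparagine GTT windows made the largest group, with 12 of 13 tested. All 12 had a fitted fold change below 0, as did 566 of all 1064 tested windows and 327 of the 403 tRNA windows elsewhere. Of the 12, 1 was called lower (4.79% of all tested windows) and 6 had an unadjusted p under 0.05 (14.2% lower). Their median log2 fold change was -0.89. TRN-GTT10-1 (window at positions 145129089 to 145129488), the asparagine window with the most reads, had 443, 332 and 225 CPM in the control and 133, 53.9 and 194 in the knockdown libraries. The arms did not overlap, but the lowest control and the highest knockdown value lay close together. The log2 fold change was -1.39 (SE 0.43, adjusted p = 0.0963 by edgeR), short of the threshold. DESeq2 called it (adjusted p = 0.0242), as did edgeR without La knockdown replicate 3 (0.0344). Without any one of the other 5 libraries edgeR gave an adjusted p from 0.0640, without control replicate 3, to 0.303, without La knockdown replicate 1. The 5 asparagine GTT windows with the smallest differences, TRN-GTT25-1, TRN-GTT7-1, TRN-GTT6-1, TRN-GTT2-7 and TRN-GTT9-1, had log2 fold changes from -0.52 to -0.29. The 6 tested Asn-GTT windows elsewhere had a median of -0.46 and 0 calls, and the difference was not tested.

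Copies of 1 asparagine sequence gave a range of fitted values. TRN-GTT2 has 3 copies in the pericentromeric stretch, and their log2 fold changes were -1.15 for TRN-GTT2-1, -0.99 for TRN-GTT2-8 and -0.50 for TRN-GTT2-7 (edgeR adjusted p = 0.0605, 0.103 and 0.314). TRN-GTT2-1 had 108, 108 and 104 CPM in the control and 43.0, 30.9 and 70.9 in the knockdown libraries, with the smallest spread among controls of the 3. The 5 copies elsewhere in the genome ran from -0.54 to 0.13, and none was called. TRN-GTT9-1 and TRN-GTT9-2 had -0.52 and -0.93, and their read counts differed as well, with 184, 111 and 86 against 755, 364 and 268 in the control libraries. These differences between copies were not tested.

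Valine CAC windows covered nearly the whole range of values seen here. Of 9 windows 8 were tested, with a median log2 fold change of -1.35 and a range from -2.12 to -0.11, and 2 were called lower, both pseudogenes. The 9 tested Val-CAC windows elsewhere had a median of -0.16 and 0 calls, and the difference was not tested. TRV-CAC1-7, TRV-CAC4-1 and TRV-CAC5-1, annotated as valine tRNA genes, had log2 fold changes of -0.14, -0.14 and -0.11 (SE 0.24, 0.26 and 0.25, edgeR adjusted p = 0.704, 0.712 and 0.793). TRV-CAC1-7 (window at positions 149712375 to 149712774) had 280, 253 and 242 CPM in the control and 181, 271 and 250 in the knockdown libraries, and the arms overlapped. With upper quartile factors the values of TRV-CAC1-7 and TRV-CAC5-1 changed sign, to 0.18 and 0.21.

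The counts of these 3 windows differed from each other by at most 10.6% in any library. TRV-CAC1-7 had 1071, 855 and 935 control counts and 506, 919 and 795 knockdown counts, while 6 other windows of TRV-CAC1 copies elsewhere had from 980 to 1319 counts in control replicate 1 and from 466 to 631 in La knockdown replicate 1. TRE-CTC1-1, a glutamate gene, had 8478 counts in control replicate 1, where 6 copies elsewhere had from 8554 to 9055. Whether the same reads were counted at several copies was not tested.

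Among the valine CAC windows 2 held genes of 71 bases, where the other 7 valine windows held genes of 73 bases and all 5 glycine CCC windows held genes of 71 bases. These are TRV-CAC8-1 and a gene that RefSeq names TRNAV-CAC without a copy number, in window tRNA_51208. TRNAV-CAC in tRNA_51208 (positions 145160958 to 145161357, gene at 145161108 to 145161178) had 606, 250 and 130 CPM in the control and 78.2, 29.8 and 121 in the knockdown libraries, a log2 fold change of -2.11 (SE 0.59, adjusted p = 0.0728 by edgeR). Without control replicate 1 it was -1.32 (adjusted p = 0.204). TRV-CAC8-1 (window at positions 143799862 to 143800261) had 435, 184 and 95.9 CPM in the control and 57.4, 26.5 and 100 in the knockdown libraries, a log2 fold change of -1.96 (SE 0.58, adjusted p = 0.0830 by edgeR). The control values of both covered a range of over 4-fold, as control replicate 1 was 4.68 and 4.54 times control replicate 3, while the highest knockdown library lay just under the lowest control library for the first and just above it for the second. The other TRNAV-CAC gene, of 73 bases in tRNA_51377, had 211, 184 and 125 CPM in the control and 68.1, 90.4 and 153 in the knockdown libraries, which overlapped (log2 fold change -0.74, SE 0.34, adjusted p = 0.208 by edgeR).

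Glycine CCC windows included the 3 with the most reads, TRG-CCC4-1, TRG-CCC1-1 and TRG-CCC1-2. TRG-CCC4-1 (window at positions 16678092 to 16678491, gene at 16678271 to 16678341) had 3898, 3710 and 4051 CPM in the control and 3103, 1509 and 2846 in the knockdown libraries. The arms did not overlap, and La knockdown replicate 2 lay far below the other two knockdown libraries. The log2 fold change was -0.64 (SE 0.27, adjusted p = 0.186 by edgeR). TRG-CCC1-1 and TRG-CCC1-2, copies of 1 sequence, had -0.74 and -0.55 (adjusted p = 0.103 and 0.178), and TRG-CCC5-1 had -0.35 (0.470).

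TRG-CCC6-1, the glycine CCC gene of the pericentromeric stretch (window at positions 121016666 to 121017065), had the largest difference of its group. It had 1313, 621 and 403 CPM in the control and 229, 145 and 396 in the knockdown libraries, so that the lowest control and the highest knockdown value nearly met. The log2 fold change was -1.60 (SE 0.47, adjusted p = 0.0820 by edgeR). Of the 5 tested Gly-CCC windows 0 were called and 4 were lower at an unadjusted p under 0.05 (14.2% of all tested windows), and their median was -0.64. The 4 tested Gly-CCC windows elsewhere had a median of 0.25, a range from -0.06 to 0.45 and no call, and the difference between the sets was not tested.

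Glutamine CTG windows held 4 genes with like values and the 2 pseudogenes TRQ-CTG11-1, described above, and TRQ-CTG9-1. TRQ-CTG9-1 had 188, 115 and 105 control counts and 50, 19 and 108 knockdown counts, which overlapped (log2 fold change -0.94, adjusted p = 0.265 by edgeR). The genes TRQ-CTG4-2, TRQ-CTG3-1, TRQ-CTG4-1 and TRQ-CTG3-2 had log2 fold changes from -0.63 to -0.46, none called. TRQ-CTG4-1 (window at positions 148264930 to 148265329) had 136, 116 and 117 CPM in the control and 73.9, 81.6 and 89.2 in the knockdown libraries, with no overlap (log2 fold change -0.59, SE 0.23, adjusted p = 0.157 by edgeR). The 8 tested Gln-CTG windows elsewhere had a median of -0.58.

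Glutamate, glycine TCC, lysine and histidine windows gave no call. TRE-CTC1-1 (window at positions 146035542 to 146035941), the glutamate window with the most reads, had 2213, 1541 and 1735 CPM in the control and 1394, 1109 and 1420 in the knockdown libraries, which did not overlap (log2 fold change -0.48, SE 0.23, adjusted p = 0.224 by edgeR). TRE-TTC3-1 in 1p36 had 606, 361 and 428 CPM against 389, 276 and 399 (-0.39, adjusted p = 0.359), and the arms overlapped. TRG-TCC2-1, a second glycine anticodon, had 102, 69.8 and 79.3 CPM against 63.5, 51.9 and 79.1 (-0.37, adjusted p = 0.371). TRK-CTT2-1, a lysine gene, had 70.5, 73.6 and 65.6 CPM against 45.2, 42.4 and 66.5 (-0.44, adjusted p = 0.283). For TRG-TCC2-1 and TRK-CTT2-1 the highest knockdown library reached the control range. The windows without a RefSeq gene that were tested and not called, tRNA_51542 and tRNA_51546, had log2 fold changes of -1.25 and -1.08 (adjusted p = 0.157 and 0.0926), and tRNA_51546 had 30, 30 and 38 control counts against 10, 14 and 15.

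The histidine GTG windows TRH-GTG1-1, TRH-GTG1-4 and TRH-GTG1-3 had log2 fold changes of -0.18, -0.15 and -0.05. TRH-GTG1-1 (window at positions 146037894 to 146038293) had 273, 271 and 332 CPM in the control and 262, 271 and 241 in the knockdown libraries (SE 0.23, adjusted p = 0.607 by edgeR), and the arms nearly touched. The signs of TRH-GTG1-1 and TRH-GTG1-3 depended on the scaling, since upper quartile factors gave 0.14 and 0.27. The single fitted value above 0 belonged to TRE-TTC10-1, a pseudogene of 273 bases, with 18, 18 and 23 control counts and 15, 19 and 20 knockdown counts (0.11, adjusted p = 0.830).

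Summing the windows of 1 anticodon reduces the doubt about which of these copies a read came from. The sums include pseudogene windows and leave out copies elsewhere, and a read counted at several windows would enter a sum more than once. None of the 9 anticodon sums passed the threshold (edgeR, 4.45% of all features called lower in that fit), and 5 had an unadjusted p under 0.05, where 14.2% of all features did so as lower. Val-CAC sums were 3862, 2291 and 1715 CPM in controls and 909, 1058 and 1570 CPM in knockdowns, with means of 2623 ± 1111 and 1179 ± 347 (SD, n = 3) and a difference of -1.15 on the log2 scale (SE 0.33, adjusted p = 0.0788 by edgeR). Asn-GTT went from 1223 ± 296 to 580 ± 266 CPM (SD, n = 3; -1.08, SE 0.35, adjusted p = 0.112), and Gly-CCC from 10220 ± 906 to 6155 ± 1729 CPM (SD, n = 3; -0.73, SE 0.24, adjusted p = 0.123). Gln-CTG and Glu-CTC had -0.64 and -0.52 (adjusted p = 0.169 and 0.213). The arms did not overlap in these 5 sums, and they overlapped in His-GTG, Glu-TTC, Gly-TCC and Lys-CTT. The share of all features with arms apart was not computed for the fit with sums. For single windows it was 17.9% lower over all tested windows and 32.8% over tRNA windows elsewhere. DESeq2 called 1 sum, Val-CAC, and in its fit of single windows it called 7.14% of all windows lower. The Val-CAC windows differed. The pseudogenes TRV-CAC11-1 and TRV-CAC11-2, with nearly the same counts, went from a mean of 542 to 125 CPM and from 551 to 133 CPM. The genes TRV-CAC1-7, TRV-CAC4-1 and TRV-CAC5-1 went from 258 to 234, from 251 to 227 and from 245 to 228 CPM.

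Neighbouring genes were then compared within a library, because the ratio of the reads of 2 windows does not depend on the scaling. The pairs were chosen after their values were seen, so their p-values, here and in the next paragraph, only describe these pairs. There were 8 pairs of tested windows that followed each other within 4000 bp without overlap, and the ratios of the arms did not overlap in 4 of them. Among 235 such pairs of tested windows of any class the share was 20.9%. The 4 pairs were not all independent, as given below. In 1p36, a glycine CCC gene and a valine CAC pseudogene that were both tested lie together 2 times. These are TRG-CCC1-1 with TRV-CAC11-1 (window starts 1725 bp apart) and TRV-CAC11-2 with TRG-CCC1-2 (1723 bp). TRG-CCC1-1 had 3.68, 6.22 and 9.00 times the reads of TRV-CAC11-1 in the control and 18.2, 23.5 and 9.82 times in the knockdown libraries. The ratios of the arms did not overlap (exact permutation test of the log2 ratios, two-sided p = 0.1, the smallest possible for 3 against 3, and 0.2 after Benjamini-Hochberg adjustment over the 8 pairs). TRV-CAC11-2 had 0.336, 0.197 and 0.143 times the reads of TRG-CCC1-2 in the control and 0.0631, 0.0481 and 0.117 times in the knockdown libraries, again without overlap and with the same p. As the TRV-CAC11 windows of both pairs had nearly the same counts, the pairs are not independent. A further pair of this kind in 1p36, TRV-CAC13-1 and TRG-CCC5-1 (windows from positions 16725416 and 16727135), was left out. TRV-CAC13-1 had too few reads to be tested, with 9, 4 and 1 in the control and 1, 1 and 1 in the knockdown libraries. TRG-CCC5-1 had 461, 262 and 249 against 201, 154 and 281.

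In the pericentromeric stretch a gene of 71 bases lies from 3886 to 3955 bp from a valine CAC gene of 73 bases 3 times, by window starts. TRG-CCC6-1 had 4.88, 2.52 and 1.84 times the reads of TRV-CAC5-1 in the control and 1.34, 0.537 and 1.63 times in the knockdown libraries. TRV-CAC8-1 had 1.62, 0.726 and 0.413 times the reads of TRV-CAC4-1 in the control and 0.352, 0.0993 and 0.399 times in the knockdown libraries. For these genes the ratios of the arms did not overlap (exact permutation p = 0.1, adjusted 0.2), though the nearest control and knockdown ratios of the second pair were almost equal. The counts of TRV-CAC5-1 and TRV-CAC4-1 differed by at most 5.62% in any library, so these pairs are not independent either. TRNAV-CAC in tRNA_51377 had 0.349, 0.737 and 0.962 times the reads of TRNAV-CAC in tRNA_51208 in the control and 0.872, 3.04 and 1.26 times in the knockdown libraries, which overlapped (exact permutation p = 0.2, adjusted 0.32). The ratios within the group of TRE-CTC1-1, TRG-TCC2-1, TRH-GTG1-1 and TRK-CTT2-1 overlapped in all 3 neighbouring pairs (exact permutation p from 0.3 to 0.6).

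**Figure D3:**
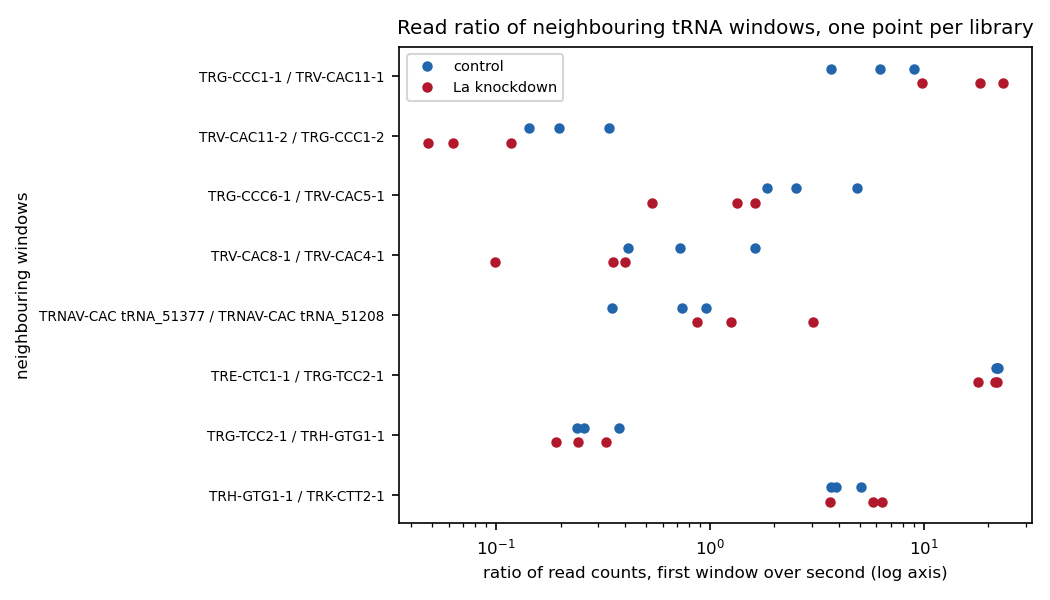
Ratio of raw read counts of 8 pairs of neighbouring windows (log axis), one point per library, control in blue and La knockdown in red. The arms are apart in the first 4 pairs, by a small margin in TRV-CAC8-1 over TRV-CAC4-1, and overlap in the other 4. The first 4 pairs are not all independent, as some of their windows had nearly the same counts. Of 235 neighbouring pairs of tested windows of any class, 20.9% had arms apart.

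The order of the libraries within an arm was often the same from window to window. Control replicate 1 was the highest control library in 32 of the 43 tested windows (74.4%, against 47.8% of all tested windows). La knockdown replicate 2 was the lowest knockdown library in 29 (67.4%, against 43.3%). Without control replicate 1, and likewise without La knockdown replicate 1, edgeR called 0 of the 43 windows. In each case 15 were lower at an unadjusted p under 0.05. The share of all windows at that unadjusted threshold was 14.2% with all 6 libraries and was not computed for these fits. At the adjusted threshold, 2.69% of all windows were lower in the first of these fits and 0% in the second. The second fit thus called no window of any class lower. Without control replicate 2 or La knockdown replicate 2 it called 2 (2.54% and 2.91% of all windows). Without control replicate 3 it called 7 (4.82% of all windows), and without La knockdown replicate 3 it called 17 (8.6%). The 17 included all 5 windows called with 6 libraries and also TRG-CCC6-1, TRV-CAC8-1, both TRNAV-CAC windows, TRN-GTT10-1 and TRG-CCC1-1. With all 6 libraries, DESeq2 called 10 windows lower (7.14% of all windows), the same 5 and TRG-CCC6-1, TRV-CAC8-1, TRNAV-CAC in tRNA_51208, TRN-GTT10-1 and TRN-GTT2-1.

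**Figure D4:**
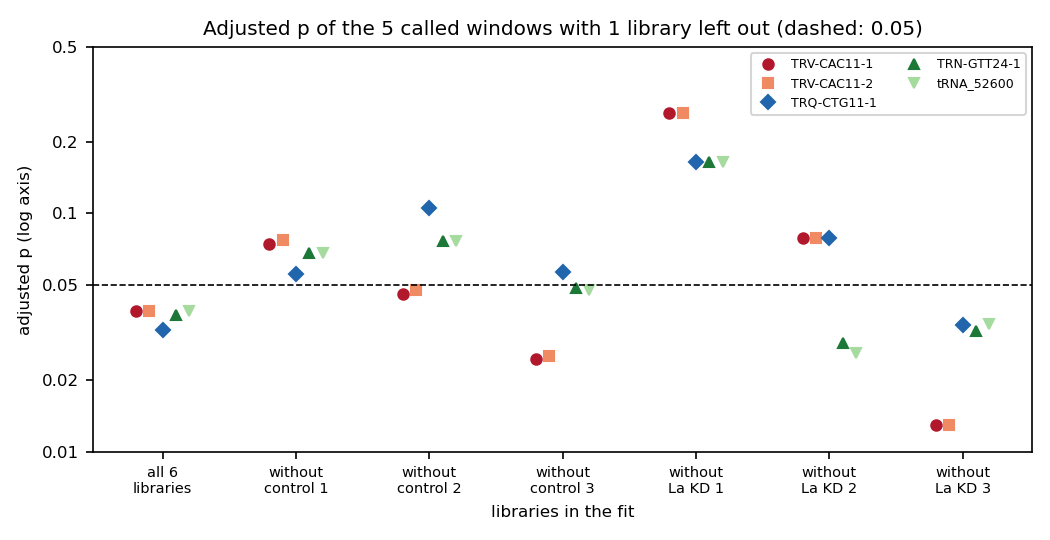
Adjusted p of the 5 called windows (log axis, dashed line at 0.05) in the edgeR fit of all 6 libraries and of 5 libraries at a time. All 5 lie above the line without control replicate 1 and without La knockdown replicate 1, where they reach 0.265.

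The authors' deposited table called 11 of the 60 windows lower and 0 higher at its adjusted p under 0.05, where 0.149% and 0.00373% of all 53603 windows were called. Only 1064 of the 53603 windows passed the filter on low counts here. Most of the 53603 therefore had too few reads to be called, and these shares are not a like reference for windows with reads. These 11 in the authors' deposited table included the 5 called here. The others were TRG-CCC6-1, TRV-CAC8-1, TRNAV-CAC in tRNA_51208, TRN-GTT10-1, TRN-GTT2-1 and tRNA_51542, which holds no RefSeq gene. In the authors' deposited table TRV-CAC11-1 had a log2 fold change of -2.30 and TRN-GTT24-1 one of -1.64. Over the 43 tested windows the median log2 fold change of the authors' deposited table was -0.85, and the median difference from the values fitted here was -0.24.

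Other RNA polymerase III genes give a reference for these values. Of 21 fixed symbols, which include RMRP, RPPH1 and the Y, vault, 7SK, 7SL and U6 RNA genes, 20 had a window. Of 21 tested windows 2 were called lower and 0 higher, beside 4.79% and 0.658% of all tested windows. Those were the vault RNA genes VTRNA1-1 and VTRNA1-2 (log2 fold change -1.86 and -2.20, edgeR adjusted p = 0.0103 and 0.00565), and the median of the 21 was 0.04. RMRP, RN7SK, RN7SL1 and RN7SL2 entered more than once, so the 21 windows are not independent. VTRNA1-3 had -1.11 (adjusted p = 0.135 by edgeR). VTRNA2-1, with too few reads to test, had 14, 10 and 7 control counts and 2, 2 and 2 knockdown counts. RMRP, the RNA of RNase MRP, had 0.52, and RPPH1, the RNA of RNase P that cuts the tRNA leader, had 0.44 (adjusted p = 0.234 and 0.247).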

How the data were processed

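The authors' deposited raw count table, per the file headers, holds read counts of 53603 windows of 400 bp in 6 libraries. The authors' deposited comparison gives log2 fold changes, an F statistic (a score), p-values and adjusted p-values. The submitters' processing notes name Trim Galore, Bowtie2, bedtools and edgeR, and the builds GRCh38 and hg38; versions, use of strand and placement of reads with several positions are not given in the sources used here. Window starts were shifted by 1. RefSeq names (GRCh38.p14) required the whole gene inside the window and matched 408 of 534 tRNA windows. No sequences of these genes were used.

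The count table was fitted whole with edgeR 4.0.16 in R 4.3.3 (filterByExpr defaults, TMM, quasi-likelihood test, Benjamini-Hochberg), and with DESeq2 1.42.0 as an alternative. Standard errors came from the fold change and F. The fit was also run on data simulated with the same spread setting for all windows, which cannot show how it performs on these libraries. Exact permutation tests used scipy 1.17.1. Total counts ran from 3066299 to 4105806 per library, and replicates of an arm differed beyond sampling noise (chi-square per degree of freedom at least 62.1).

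Windows were named if called, if highest of their anticodon, or if among the 3 lowest or 3 highest fold changes with a mean of at least 20 counts. Members and lists were chosen with earlier results of these data known. Pairs of neighbours, copies and further windows were chosen after their values were seen.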

Additional observations from a re-analysis of the deposited data

How the results depend on the processing

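Windows called lower, 5 with all libraries, became 9 with library size alone (6.48% of all windows lower), 3 with upper quartile factors (3.38%), 10 with DESeq2 (7.14%), 14 without a filter (0.476% of a larger number of windows) and 0 at an adjusted p under 0.01 (20 at an unadjusted p under 0.05), and ranged from 0 to 17 over the fits that each left out 1 library. RLE factors, identical rows collapsed and a mean of at least 20 counts gave 5, 5 and 4. No alternative called a window higher. The median log2 fold change of -0.61 stayed below 0 throughout and became -0.29 with upper quartile factors, which moved the median of all windows from -0.05 to 0.26. Anticodon sums called lower, 0 with all libraries, became 1 with library size alone and with DESeq2 and 2 without a filter, and ranged from 0 to 2 over the fits without 1 library. A replicate block gave 13 lower windows (8.27% of all windows) and 2 anticodon sums, Asn-GTT and Val-CAC. The main fit did not pair libraries by number. The correlations of the deviations of libraries with the same number were 0.14, 0.23 and -0.46. With 3 libraries per arm these values cannot show whether the numbers mark pairs.

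Of 187 values of the 17 named windows under 11 alternatives, 152 kept direction and side of the threshold, 19 lost the call, 8 gained one and 8 changed sign, all 8 in windows that were not called. Upper quartile factors gave 0.27 for TRH-GTG1-3, 0.21 for TRV-CAC5-1, 0.18 for TRV-CAC1-7 and 0.14 for TRH-GTG1-1. TRH-GTG1-3 was 0.021 under RLE factors and DESeq2 alike. Over the fits of 5 libraries TRH-GTG1-3 ranged from -0.16 to 0.15 (above 0 without control replicate 3) and TRV-CAC5-1 from -0.26 to 0.036 (above 0 without La knockdown replicate 1). Fewer libraries or windows entered some fits; beyond that the cause was not tested. The 17 windows that did not pass the filter had too few reads to be tested with it.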
